A study of Mus musculus with 6 samples.

Results

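The gene set described here comprised Il10, the receptor chains Il10ra and Il10rb, the T cell receptors Ctla4 and Cd28, and the B7 family ligands Cd80, Cd86, Cd274, Pdcd1lg2 and Icosl. They are effector molecules of regulatory T cells and the partners those molecules meet on myeloid cells. A gene was taken when a probe set of the array carried its symbol and no other, and all 10 were found among 19752 named genes. Cd80 had 2 probe sets, of which the one with the higher mean was used, and each of the other genes had 1.

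The samples were skeletal muscle of mdx mice, a dystrophin-deficient strain in which damaged fibres regenerate and leukocytes enter the tissue. Muscle RNA of 3 mice or groups of mice given anti-CD25 mAb, clone PC61, which binds CD25, the alpha chain of the receptor for interleukin-2 found on regulatory T cells, was set against muscle RNA of 3 given rat IgG. Antibody was injected intraperitoneally 2 times, at days 17 and 20 of age, and the labels describe every animal as mdx, male and 6 weeks old, which is day 42, whereas dissection 7 days after the last injection, as the design text has it, would fall on day 27. The muscle taken and any pooling are not labelled, nor whether samples came from different animals, and the p-values rest on the spread between samples, which may be technical. The study's title names the depletion of regulatory T cells as its question.

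IL-10 is an anti-inflammatory cytokine made by regulatory T cells and macrophages. It binds a receptor whose IL-10RA chain gives specificity and whose IL-10RB chain is shared with other members of the cytokine family, and it acts through JAK1, TYK2 and STAT3. CD28 and CTLA-4 compete for the ligands CD80 and CD86 on antigen-presenting cells, CD28 giving a costimulatory and CTLA-4 an inhibitory outcome, and regulatory T cells carry CTLA-4 constitutively. PD-L1, encoded by Cd274, and PD-L2, encoded by Pdcd1lg2, engage the inhibitory receptor PD-1, and ICOS ligand, encoded by Icosl, engages ICOS.

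With 1 array for each sample, precision is limited by the 3 arrays in each group. All values below are log2 units of the deposited intensity, and differences are anti-CD25 minus rat IgG. The skeletal muscle label was borne out by Acta1, skeletal alpha-actin, at 13.79 ± 0.011 with anti-CD25 and 13.80 ± 0.040 with rat IgG (SD, n = 3 each), and by Ckm, muscle creatine kinase, at 13.61 ± 0.052 and 13.63 ± 0.048 in the same order. The male label was not borne out by 4 arrays. On anti-CD25 1 and 2 and rat IgG 1 and 2, Xist, the RNA of the inactive X chromosome, lay between 11.77 and 11.94 and 3 Y-linked genes lay at 5.09 or below, while on anti-CD25 3 and rat IgG 3 Xist lay at 5.48 to 5.49 and the Y-linked genes at 7.80 or above. Differences are therefore also given separately for the high Xist class of 4 arrays and the low Xist class of 2, where 1 array a group allows no test. The dim end of the arrays differed too. The lower quartile was 5.82 on anti-CD25 3 and 5.85 on rat IgG 1 and 2, against 5.68 to 5.70 on the other 3 arrays.

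At an adjusted p of 0.05 in limma, 0 of the 10 genes passed, against 0% of all 19752 genes, where the smallest adjusted p was 0.750. Of the 10, 5 were higher and 5 lower with anti-CD25, with a median difference of 0.025, against a median of -0.026 over all genes. Ctla4 was the only one of the 10 whose groups did not overlap, in a background of 7.46% of all genes that were lower in this way and 4.28% that were higher, so 1 of 10 is close to the background. It was also the only one with an unadjusted p under 0.05, against 6.28% of all genes, of which 3.98% were lower and 2.30% higher. Ctla4 was among the dimmest 30% of genes, where 619 of 5926 were apart and lower. Of the same 5926 genes, 454 were lower at an unadjusted limma p under 0.05. The differences of the 10 genes ran from -0.21 for Ctla4 to 0.25 for Il10rb, and their 95% intervals reached a median of 0.27 to each side. In bulk muscle, fewer cells of a type and less RNA per cell cannot be told apart.

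**Figure D1:**
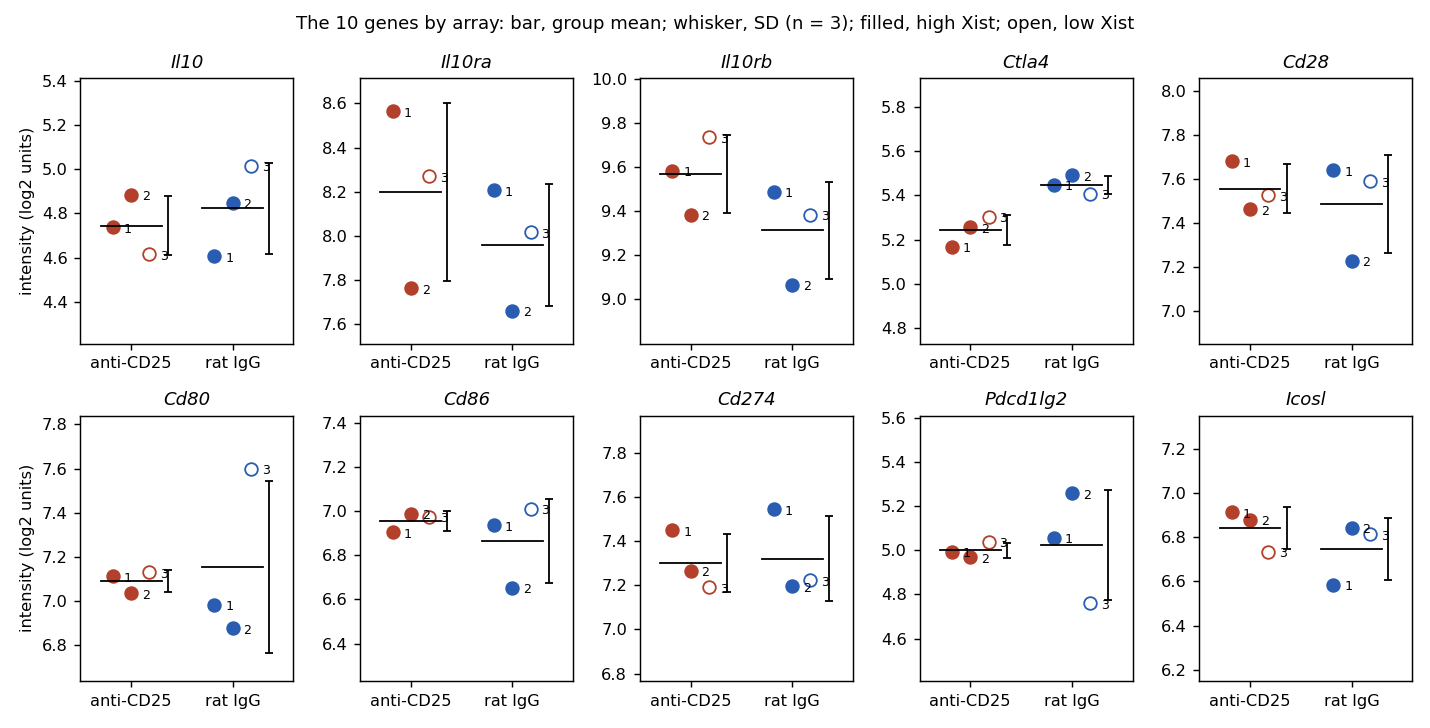
Log2 intensity of each of the 10 genes on each array, with a vertical axis of 1 shared span but its own centre in each panel. Points are arrays numbered by replicate, bars group means and whiskers SD (n = 3 each). The groups are apart for Ctla4, at 5.17 to 5.30 with anti-CD25 and 5.41 to 5.49 with rat IgG, and overlap for the other 9 genes.

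The sequence upstream of Ctla4, the 1 gene whose groups were apart, and of Cd80, whose 2 probe sets differed in sign, is shown from RefSeq on the GRCm38.p6 build, as the 250 bases before the gene start on the plus strand. The windows are chr1:60908775-60909024 for Ctla4 and chr16:38458683-38458932 for Cd80, and the capitals in Cd80 mark a match to the AP-1 motif TGANTCA, which begins 42 bases before the gene start.
Ctla4: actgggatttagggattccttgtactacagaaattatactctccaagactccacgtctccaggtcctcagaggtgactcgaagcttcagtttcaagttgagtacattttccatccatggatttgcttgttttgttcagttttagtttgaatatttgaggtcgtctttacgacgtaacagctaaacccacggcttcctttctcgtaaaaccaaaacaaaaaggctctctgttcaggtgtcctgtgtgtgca
Cd80: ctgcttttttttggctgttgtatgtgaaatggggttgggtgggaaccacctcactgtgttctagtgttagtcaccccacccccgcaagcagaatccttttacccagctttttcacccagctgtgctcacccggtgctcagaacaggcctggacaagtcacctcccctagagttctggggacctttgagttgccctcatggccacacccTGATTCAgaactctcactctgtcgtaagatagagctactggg

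Promoter sequences were at hand for 5 of the 10 genes, Ctla4, Cd80, Cd274, Pdcd1lg2 and Icosl, and not for Il10, Il10ra, Il10rb, Cd28 and Cd86. On both strands of these 5 windows, TGANTCA was found in Cd80 alone, and it is found in 6.75% of 32851 promoter windows of the same length. The STAT motif TTCNNNGAA, found in 7.02% of all windows, and a 10-base form of the interferon-stimulated response element, found in 2.98%, had no match in the 5. These letters describe the windows only.

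Il10 itself was dim and its groups overlapped. It measured 4.74, 4.88 and 4.61 on anti-CD25 1, 2 and 3, against 4.61, 4.85 and 5.02 on rat IgG 1, 2 and 3. All 6 values lay below the lower quartile of their array, and the lowest array of each group stood at the same level. The difference was -0.078 (95% interval -0.35 to 0.20, limma adjusted p = 0.900). Within the high Xist class it was 0.084 and in the low class -0.40, and -0.0037 after a second quantile normalization of the 6 arrays.

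Both receptor chains were higher on average with anti-CD25, by less than the spread between arrays. Il10ra, the ligand-binding chain found on leukocytes, measured 8.56, 7.76 and 8.27 on anti-CD25 1, 2 and 3, against 8.21, 7.66 and 8.02 on rat IgG 1, 2 and 3. Within each group replicate 2 was lowest and replicate 1 highest, so the range inside the anti-CD25 group, 0.80, exceeded the difference of 0.24 (95% interval -0.22 to 0.70, limma adjusted p = 0.803). That difference was 0.055 when anti-CD25 1 was left out, 0.46 when anti-CD25 2 was, 0.36 when rat IgG 1 was and 0.088 when rat IgG 2 was. Il10rb, the shared chain with a wide tissue distribution, measured 9.58, 9.38 and 9.73 with anti-CD25, against 9.49, 9.07 and 9.38 with rat IgG. Anti-CD25 3 was the highest array and rat IgG 2 the lowest, and anti-CD25 2 stood level with rat IgG 3. Its difference was 0.25, a 1.19-fold level (95% interval -0.044 to 0.55, limma adjusted p = 0.750), with 0.21 in the class with high Xist and 0.35 in that with low Xist. Without rat IgG 2 it was 0.13. For Il10ra these 2 values were 0.23 and 0.25, so both chains kept their sign in each Xist class, in every array left out and after a second quantile normalization.

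**Figure D2:**
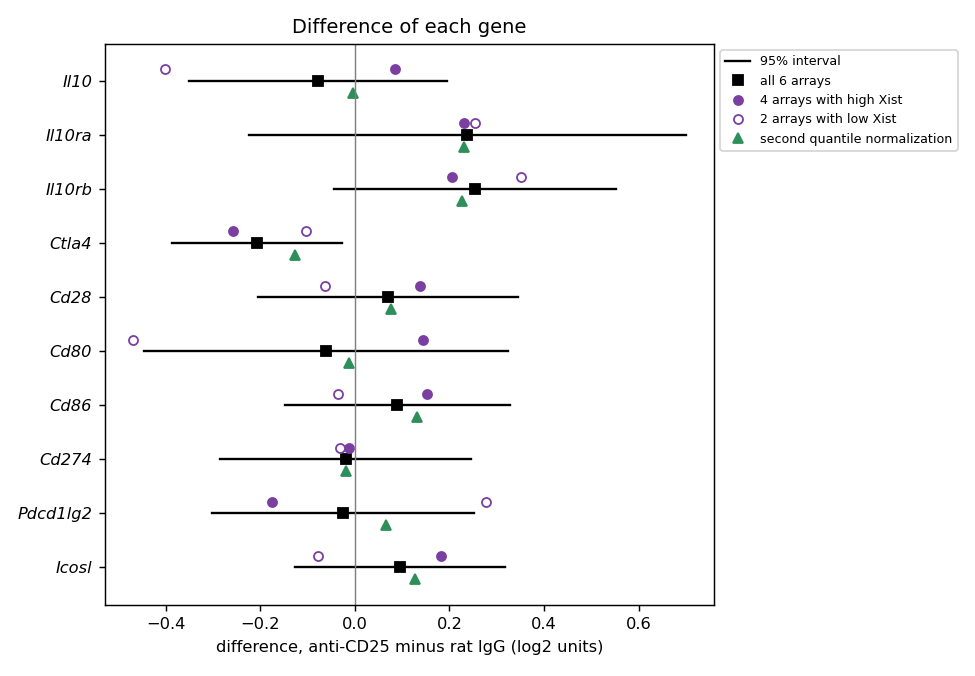
Difference of each gene, anti-CD25 minus rat IgG in log2 units. Squares are all 6 arrays with limma's 95% interval, filled circles the 4 arrays with high Xist, open circles the 2 arrays with low Xist, and triangles a second quantile normalization. Only the interval of Ctla4, -0.39 to -0.027, leaves out 0, and 6 genes (Il10, Cd28, Cd80, Cd86, Pdcd1lg2 and Icosl) have circles on both sides of 0.

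Ctla4, the inhibitory receptor, measured 5.17, 5.26 and 5.30 on anti-CD25 1, 2 and 3, against 5.45, 5.49 and 5.41 on rat IgG 1, 2 and 3. Every anti-CD25 array lay below every rat IgG array, with a gap of about the size of the range within the groups. The difference was -0.21 (SE 0.079, 95% interval -0.39 to -0.027), with an unadjusted p of 0.029 and a limma adjusted p of 0.750, and it kept its sign in both Xist classes, at -0.26 in the high class and -0.10 in the low one. Ctla4 lay below the lower quartile of all 6 arrays, in a range where 76.6% of the dimmest 30% of genes were lower with anti-CD25, with a median difference of -0.080. After a second quantile normalization the median of those genes was -0.0033, and Ctla4 differed by -0.13 (95% interval -0.29 to 0.041, limma adjusted p = 0.731).

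Cd28, the costimulatory receptor and the protein-coding neighbour of Ctla4 in the genome, measured 7.68, 7.46 and 7.53 on anti-CD25 1, 2 and 3, against 7.64, 7.23 and 7.59 on rat IgG 1, 2 and 3. The groups overlapped, and rat IgG 2 stood apart below the other 5 arrays. The difference was 0.071 (95% interval -0.20 to 0.35, limma adjusted p = 0.911), and -0.057 without rat IgG 2. Icos, the neighbour of Ctla4 on its other side and the receptor for ICOS ligand, differed by -0.14 (SE 0.14).

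Of the ligands of CD28 and CTLA-4, Cd86 was nearly level and Cd80 depended on the probe set. Cd86 measured 6.90, 6.99 and 6.97 on anti-CD25 1, 2 and 3, against 6.94, 6.65 and 7.01 on rat IgG 1, 2 and 3. The anti-CD25 arrays lay within 0.086 of each other, inside the range of the rat IgG arrays. The difference was 0.089 (95% interval -0.15 to 0.33, limma adjusted p = 0.859) and turned to -0.018 without rat IgG 2. Cd80 measured 7.11, 7.03 and 7.13 with anti-CD25, against 6.98, 6.88 and 7.60 with rat IgG. Here rat IgG 3 was highest of all 6 arrays and rat IgG 1 and 2 were lowest. The difference was -0.061 (95% interval -0.45 to 0.32, limma adjusted p = 0.948), and 0.16 without rat IgG 3. The other Cd80 probe set measured 7.29, 7.12 and 7.23 with anti-CD25, against 6.77, 6.70 and 7.38 with rat IgG, a difference of 0.27 (95% interval -0.11 to 0.64, limma adjusted p = 0.756). Both probe sets placed rat IgG 3 highest and rat IgG 2 lowest, and they disagreed in the sign of the group difference.

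The PD-1 ligands Cd274 and Pdcd1lg2, which are next to each other in the genome among protein-coding genes, showed no shared direction over the arrays. Cd274 measured 7.45, 7.26 and 7.19 on anti-CD25 1, 2 and 3, against 7.54, 7.20 and 7.22 on rat IgG 1, 2 and 3. In both groups replicate 1 was highest and the others lay close together. The difference was -0.020 (95% interval -0.28 to 0.25, limma adjusted p = 0.978). Pdcd1lg2 measured 4.99, 4.97 and 5.04 with anti-CD25, against 5.06, 5.26 and 4.76 with rat IgG. The 3 anti-CD25 arrays lay within 0.068 of each other between the extremes of the rat IgG arrays, and all 6 lay below their array's lower quartile. The difference was -0.025 (95% interval -0.30 to 0.25, limma adjusted p = 0.974), with -0.18 in the high and 0.28 in the low Xist class, and it turned to 0.065 after a second quantile normalization. The receptor of both, Pdcd1, differed by -0.12 (SE 0.15).

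Icosl measured 6.91, 6.88 and 6.73 on anti-CD25 1, 2 and 3, against 6.59, 6.84 and 6.81 on rat IgG 1, 2 and 3. Anti-CD25 1 and 2 were the highest arrays and rat IgG 1 the lowest, while anti-CD25 3 lay below rat IgG 2 and 3. The difference was 0.095 (95% interval -0.13 to 0.32, limma adjusted p = 0.833), and 0.015 without rat IgG 1.

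The arrays of the rat IgG group were further apart than those of the anti-CD25 group for 8 of the 10 genes, against 59.5% of all genes. The exceptions were Il10ra and Ctla4. Rat IgG 2 was the lowest array for 5 of the 10, Il10ra, Il10rb, Cd28, Cd80 and Cd86, against 20.4% of all genes. Rat IgG 3 was the highest for Il10, Cd80 and Cd86.

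The mean of macrophage and monocyte markers was also lowest on rat IgG 2, as were 12 of the 15 single markers, the exceptions being Itgam and Cd14, lowest on rat IgG 1, and Cx3cr1, lowest on anti-CD25 2, all 3 named after their values were seen. Of 16 listed genes 15 were measured, all above the 30th percentile, where 6736 of 13826 genes were higher with anti-CD25. Of these 15 markers 14 were higher, with a median of 0.30, and 0 passed the test. Leaving out anti-CD25 1 gave a median of 0.18, and leaving out rat IgG 2 gave 0.20. Their mean, each gene relative to its average over the 6 arrays, was 0.35, -0.092 and 0.20 on anti-CD25 1, 2 and 3, against -0.10, -0.39 and 0.030 on rat IgG 1, 2 and 3. On the same scale Il10ra stood at 0.48, -0.32 and 0.19 on the anti-CD25 arrays, against 0.13, -0.42 and -0.064 on the rat IgG arrays. The largest statistics in that list were those of Mertk, a receptor for dying cells, at 0.71, Cd53, a tetraspanin of leukocytes, at 0.47, and Fcgr3, an IgG receptor, at 0.49. Ptprc, the pan-leukocyte antigen CD45, differed by 0.43 (SE 0.21). The part of cell number in the receptor differences was not tested.

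**Figure D3:**
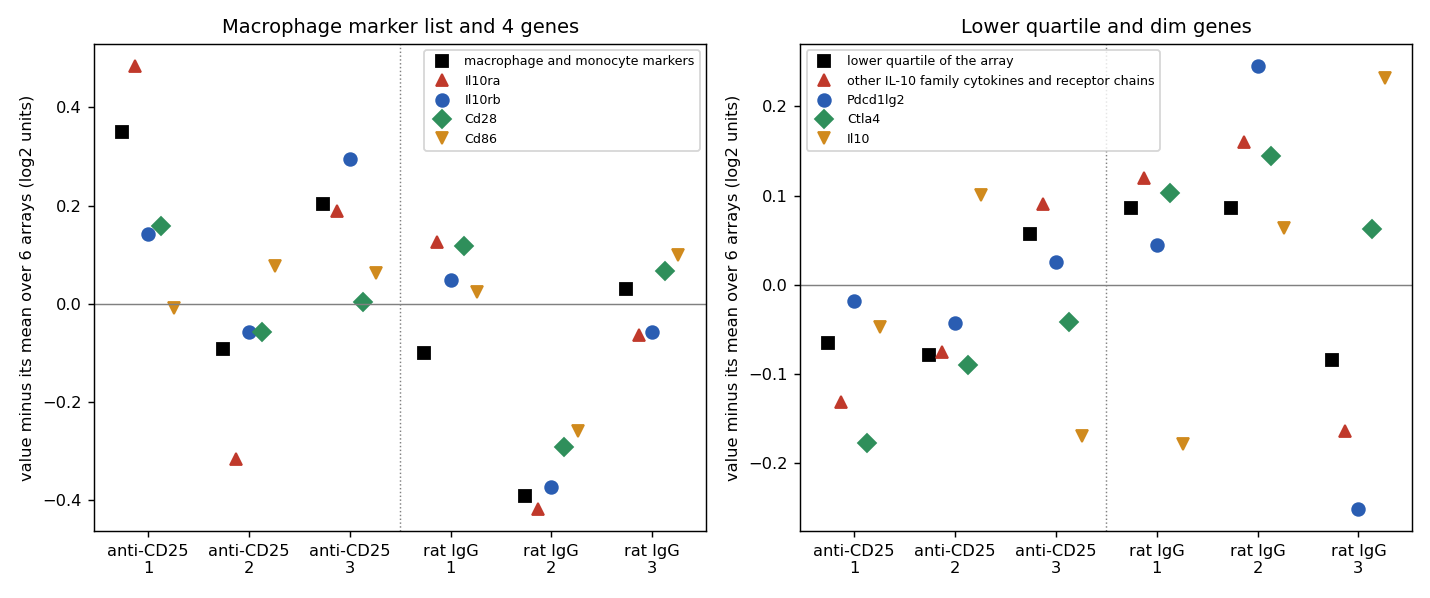
Values on each array minus their mean over the 6 arrays, in log2 units. The left panel shows the macrophage and monocyte marker mean with Il10ra, Il10rb, Cd28 and Cd86, all lowest on rat IgG 2, where the marker mean is -0.39. Cd80, lowest on rat IgG 2 but highest on rat IgG 3, is not plotted, nor are Cd274 and Icosl, lowest on other arrays. The shared low point thus rests on which genes were plotted. The right panel shows the lower quartile of each array with dim genes; the mean of the other IL-10 family genes is above 0 on anti-CD25 3 and rat IgG 1 and 2, the 3 arrays with the higher lower quartile.

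Most T cell and regulatory T cell markers were lower on average with anti-CD25, and none passed the test. Foxp3, the transcription factor of regulatory T cells, measured 6.42, 6.41 and 6.61 on anti-CD25 1, 2 and 3, against 6.60, 6.69 and 6.43 on rat IgG 1, 2 and 3. Il2ra, the antibody's target, differed by -0.0049 and lay near the lower quartile. Of 13 regulatory T cell markers, 10 had a lower mean with anti-CD25, at a list median of -0.092, and 0 passed, where 58.9% of all genes and 76.6% of the dimmest 30% were lower. Among the dimmest 30% were 4 of the 13. Of the 9 above the 30th percentile 6 were lower, against 51.3% of all genes above it. Lrrc32, which holds latent TGF-beta at the cell surface, differed by -0.24 (SE 0.10), Gpr83 by -0.17 and Ebi3, a subunit of IL-35 and IL-27, by 0.18. Of 12 T cell markers 11 were measured, 9 were lower and 0 passed, with a median of -0.086, and 7 of the 11 were among the dimmest 30%. Without rat IgG 2 the medians were -0.037 for the regulatory T cell markers and -0.028 for the T cell markers. Cd8a differed by -0.12, Thy1 by -0.10 and Cd2 by 0.16. Both medians turned between the 2 arrays with low Xist, to 0.098 for the regulatory T cell markers and 0.13 for the T cell markers, and they were -0.041 and -0.029 after a second quantile normalization.

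The other members of the IL-10 cytokine and receptor family were lower in 8 of 8 measured genes, with a median of -0.079, and 0 passed the test. Il22ra1, a chain of the IL-22 receptor, differed by -0.12, Il22ra2, the soluble IL-22 antagonist, by -0.11 and the cytokine Il19 by -0.088. Of these 8 genes 7 were among the dimmest 30%, where the median of all genes was -0.080, and after a second quantile normalization 5 of the 8 were lower, with a list median of -0.020. Between the 2 arrays with low Xist all 8 were higher with anti-CD25, with a median of 0.28. The list mean was -0.13, -0.076 and 0.091 on anti-CD25 1, 2 and 3, against 0.12, 0.16 and -0.16 on rat IgG 1, 2 and 3, which is the division of the arrays that their lower quartiles show, and its median was -0.020 without rat IgG 2. Pdcd1lg2 stood at -0.019, -0.043 and 0.025 on the anti-CD25 arrays, against 0.044, 0.25 and -0.25 on the rat IgG arrays. The other dim genes of the set did not follow that division. Il10 was among the lowest on anti-CD25 3, at -0.17, and highest on rat IgG 3, at 0.23, and Ctla4 stood at -0.042 and 0.063 on the same arrays.

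The next list held 14 genes of IL-10 signalling or induced by IL-10 in macrophages, many of which other cytokines and stress also induce. With anti-CD25 12 of the 14 were higher, with a median of 0.18 and 0 past the test. All 14 lay above the 30th percentile, where 6736 of 13826 genes were higher. Cd163, the haemoglobin scavenger receptor, measured 8.35, 8.47 and 8.26 on anti-CD25 1, 2 and 3, against 7.95, 7.60 and 8.0 on rat IgG 1, 2 and 3. These groups did not overlap, which held for 1 of the 14 genes, against 4.28% of all genes that were higher in this way. The difference of Cd163 was 0.51 (SE 0.12, limma adjusted p = 0.750). Il4ra, the IL-4 receptor alpha chain, differed by 0.39 (SE 0.13) and Sbno2, a STAT3-induced corepressor, by 0.33 (SE 0.14). The transducers Jak1, Tyk2 and Stat3 differed by 0.014, -0.0083 and 0.083. The list median was 0.026 without rat IgG 1 and -0.041 between the 2 arrays with low Xist, and 0.32 without rat IgG 3. Socs3, the feedback inhibitor of STAT3 signalling, was singled out after its values were seen. It measured 9.15, 9.39 and 9.27 with anti-CD25, against 7.81, 8.28 and 9.77 with rat IgG. Rat IgG 3 was the highest of all 6 arrays and rat IgG 1 and 2 were the lowest. The difference over all arrays was 0.65 (SE 0.41, limma adjusted p = 0.756), and without rat IgG 3 it was 1.22 (limma adjusted p = 0.0365), which became 1.18 (limma adjusted p = 0.113) when the 5 remaining arrays were normalized to common quantiles. It was 0.25 without rat IgG 1, 0.33 with the mean of its probe sets and -0.50 between the 2 arrays with low Xist.

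Among 16 other genes of the CD28 and B7 families and related checkpoint receptors, anti-CD25 arrays averaged lower for 10 and higher for 6, at a median of -0.062 and 0 past the test. Havcr2, which encodes the inhibitory receptor TIM-3 of T cells and myeloid cells, measured 7.66, 7.35 and 7.72 on anti-CD25 1, 2 and 3, against 6.98, 6.35 and 7.22 on rat IgG 1, 2 and 3. Every anti-CD25 array was above every rat IgG array, with a difference of 0.73 (SE 0.21, limma adjusted p = 0.750), and 0.47 without rat IgG 2. Lag3, an inhibitory receptor for MHC class II, measured 6.17, 6.11 and 6.25 with anti-CD25, against 6.44, 6.61 and 6.49 with rat IgG. It was lower on every anti-CD25 array, with a difference of -0.33 (SE 0.084, limma adjusted p = 0.750). Of the 16 genes, 1 was thus apart and higher and 1 apart and lower, against 4.28% and 7.46% of all genes. Havcr2 and Lag3 were named for the size of their statistics. Both kept their sign in the 2 Xist classes, at 0.84 and 0.50 for Havcr2 and -0.38 and -0.24 for Lag3, in arrays with high and with low Xist. Cd160 differed by -0.17.

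Of 12 costimulators of the TNF family 11 were lower and 1 higher, with a median of -0.064 and 0 past the test, and 8 of the 12 were among the dimmest 30%. After a second quantile normalization 6 were lower and 6 higher, with a median of -0.011. Groups did not overlap, lower with anti-CD25, for 4 of them, which were Tnfsf4, the OX40 ligand, at -0.29, Cd27 at -0.17, Cd40 at -0.10 and, named after its values were seen, Cd70 at -0.093, against the background of 7.46%. Tnfsf4, Cd27 and Cd70 were among the dimmest 30%, where 619 of 5926 genes were apart and lower.

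**Figure D4:**
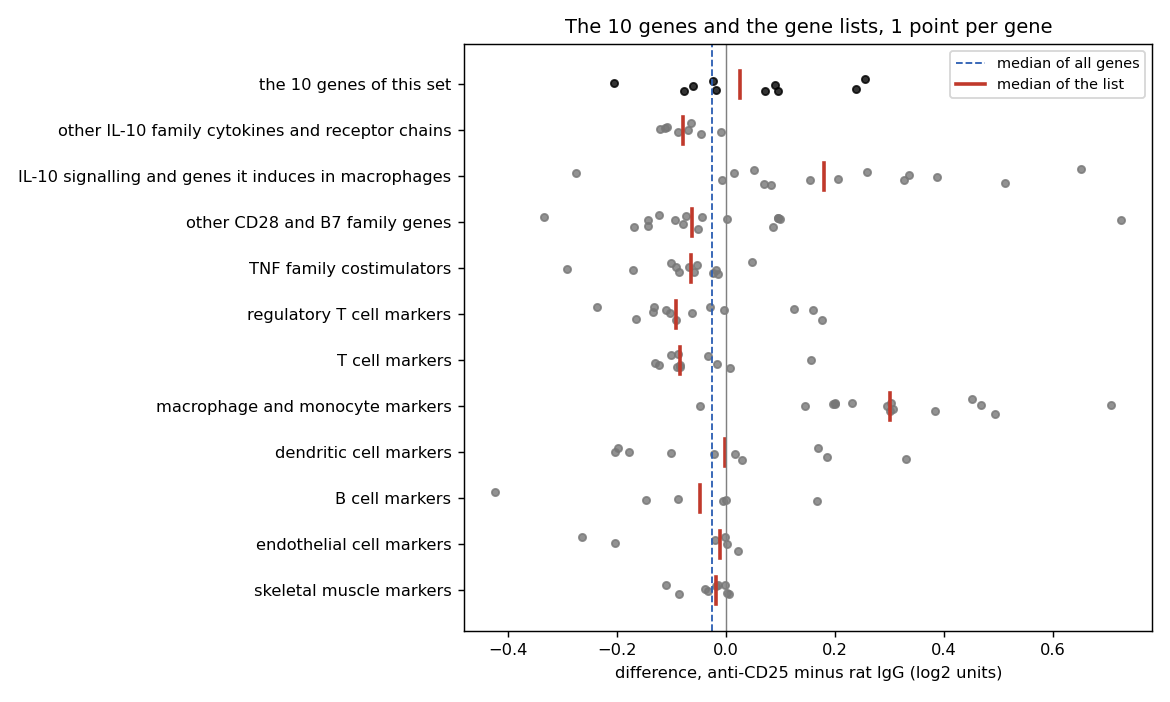
Difference of each gene, anti-CD25 minus rat IgG in log2 units, for the 10 genes of the set and each gene list, 1 point per gene with random vertical scatter. Red bars are list medians and the dashed line the median of all genes, -0.026. The macrophage and monocyte markers, with a median of 0.30, and the IL-10 signalling list, with 0.18, lie to the right of the other lists.

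Of the other antigen-presenting cells, dendritic cell markers showed no common direction, and most B cell markers were lower on average. Of 10 dendritic cell markers 5 were higher and 5 lower, with a median of -0.0025 and 0 past the test. Ccr7, a receptor of migrating dendritic cells and T cells, differed by -0.21 (SE 0.082), Xcr1, of cross-presenting dendritic cells, by -0.20 (SE 0.079) and Itgax, which encodes CD11c, by 0.33 (SE 0.18). Of 6 measured B cell markers 5 were lower and 0 passed, with a median of -0.048, and the median was 0.079 without anti-CD25 2. Among the dimmest 30% were 3 of these 6, and after a second quantile normalization 3 of the 6 were lower. Cd79a, a chain of the B cell receptor complex, differed by -0.42 (SE 0.12) and was dim, under the lower quartile on each of the 6 arrays. Cd22 differed by 0.17 and Ms4a1 by -0.15. Endothelial markers had a median of -0.011, with Kdr at -0.27, Tek at -0.20 and Pecam1 at 0.022, and muscle markers a median of -0.018, with Mb at -0.11, Actn3 at -0.086 and Des at -0.038; 0 genes of either list passed.

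For the 4 genes of the set with a mean above that of the median gene, the most similar profiles were sought among 18064 genes by the root mean square difference of values over the 6 arrays, each gene relative to its own mean. For Il10ra, whose values had an SD of 0.34 over the arrays, the nearest were Cd300c2, at 0.049, Cxcr4, the CXCL12 receptor, at 0.061 and Tifab at 0.066. For Il10rb the nearest were Cks2 at 0.024, the purinergic receptor P2ry12 at 0.027 and the mitotic kinesin Kif2c at 0.031. For Cd28 they were Tmem71 at 0.031, Sp100 at 0.035 and the sodium-calcium exchanger Slc8a1 at 0.042, and for Cd274 they were Olfr313 at 0.032, the chloride transporter Clcn5 at 0.038 and Surf6 at 0.052. With 6 arrays and this many genes, close matches arise in number, so these are descriptions only.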

How the data were processed

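The deposited table covers 24922 probe sets of 6 Affymetrix arrays. Per the submitters' processing notes the authors made these intensity values with RMA in Affymetrix Power Tools, a method of background correction, quantile normalization and probe set summary. The software version was not given in the sources used. The intensities were linear, so log2 was taken with no pseudocount. RMA draws dim values together, which can understate their differences. The dim end also shifted between these arrays. The dimmest 30% of genes had a median difference of -0.080, and of -0.0033 after a second quantile normalization, so dim differences can also be overstated here.

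Probe sets were named from the platform annotation (21425 with 1 symbol, 1399 with several and not used, 2098 unnamed). Symbols were checked by Entrez identifier against GRCm38.p6, where 21347 matched and 0 changed. For 921 of 19752 genes the probe set with the highest mean was kept. All genes were fitted together with limma (version 3.58.1, R 4.3.3, lmFit and eBayes, two-sided, group as the only term), with Benjamini-Hochberg adjustment over all of them. Tested on simulated data of this comparison (19752 genes, 200 of them changed), it called 57.8% of the genes changed by 0.5 log2 units. It called 99.5% of those changed by 1, and false calls were 7.5 and 12.7 in the same order. In the measured data, Cd163 at 0.51 and Havcr2 at 0.73 each had a limma adjusted p of 0.750. How far the simulated rates hold for the measured arrays, with their Xist classes and shifted dim end, was not tested.

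The 10 genes and the 11 lists, of which 120 of 124 entries were measured, were chosen with earlier results of these data known. Named genes were the 10, the 3 with the largest absolute statistic of each list, the 3 most similar profiles, and fixed check genes; Cd70, Socs3, Itgam, Cd14 and Cx3cr1 were added with their values known, and Icos, Pdcd1, Jak1, Tyk2 and Stat3 for their place in the pathways. Il22, Lck and Ly6c2 are not analysed here. Alternatives were a second quantile normalization, median centring, log2(value + 16), array weights, a robust fit with a variance trend, the mean of all probe sets, percentile filters (30 and 50), a replicate block, each array left out, the Xist class as a covariate, and each Xist class alone.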

Additional observations from a re-analysis of the deposited data

Results flagged for a closer look

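For 3 of the 10 genes, every anti-CD25 array differed from every rat IgG array in one direction within the 4 arrays with high Xist, and the 2 arrays with low Xist differed in the other direction. That pattern held for 33.1% of all 19752 genes, so 3 of 10 is close to the background. The difference of Cd80 was 0.14 in the high class and -0.47 in the low class, where rat IgG 3 held its highest value. Pdcd1lg2 differed by -0.18 and 0.28 in the same order, and Icosl by 0.18 and -0.078. The interaction of treatment with Xist class, fitted over all 19752 genes with limma, gave an adjusted p of 0.0965 for Cd80, 0.218 for Pdcd1lg2 and 0.538 for Icosl, so none passed 0.05, while 8 genes of the whole table did. The low class holds 1 array a group, so an effect of class and a single unusual array cannot be told apart. The interaction also sets anti-CD25 3 and rat IgG 1 and 2 against the other 3 arrays, which is the division by lower quartile. A shift of the dim end therefore cannot be told apart from the interaction either.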

How the results depend on the processing

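None of the 10 genes passed at an adjusted p of 0.05 under any alternative that gave a test, and 1, Ctla4, had an unadjusted p under 0.05 over all 6 arrays. Ctla4 was not under 0.05 after the second quantile normalization, with the variance trend and robust fit, with the replicate block, or without anti-CD25 1, anti-CD25 2, rat IgG 1 or rat IgG 2. Nor was Ctla4 under 0.05 without rat IgG 3 after renewed normalization, where its difference was -0.088. Il10ra and Il10rb were under 0.05 without anti-CD25 2, Il10rb without rat IgG 1, and Cd80 without rat IgG 3 after renewed normalization. Over all genes 0 passed, 1240 had an unadjusted p under 0.05, and with an array left out the count ran from 0 to 7, the 7 without rat IgG 3, against 0 after a new quantile normalization of those 5, a setting added after the data were seen. With the replicate block 0 genes passed, and 1105 had an unadjusted limma p under 0.05. Il10ra and Il10rb had unadjusted limma p of 0.0491 and 0.0403 (adjusted 0.893 and 0.873), and Ctla4 0.0707. Same-numbered arrays had correlations of deviations of 0.030, -0.0067 and -0.17, and unlike-numbered ones ran from -0.20 to 0.15. In both groups the array numbered 3 had low Xist. Deviations within a group sum to 0 and array-wide shifts enter them, so these values cannot decide whether the numbers pair the arrays. The median difference of the 10 genes, 0.025, ran from -0.037 to 0.13 with an array left out and was 0.14 within the arrays with high Xist. Ctla4, Il10ra and Il10rb kept their sign in every alternative. Signs turned for the others. Within the arrays with high Xist, Cd80 was 0.14 and Il10 0.084. Between the 2 with low Xist, Cd28 was -0.063, Cd86 -0.036, Icosl -0.078 and Pdcd1lg2 0.28. Cd80 was 0.042 with array weights, 0.10 with the mean of its probe sets and 0.27 with the other probe set, and Pdcd1lg2 was 0.065 after a second quantile normalization. Without rat IgG 3 and normalized again, Cd80 was 0.21 and Il10 0.14. With an array left out, Cd274 ran from -0.093 to 0.092, Cd28 from -0.057 to 0.15, Cd80 from -0.20 to 0.16, Cd86 from -0.018 to 0.16, Icosl from 0.015 to 0.15, Il10 from -0.19 to 0.019 and Pdcd1lg2 from -0.16 to 0.092. The cause of these turns was not tested. Il10, Ctla4 and Pdcd1lg2 lay below both percentile filters and Cd80, Cd86 and Icosl below the higher one, so those settings gave them no value.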
